A study of Rattus norvegicus with 11 samples.

Results

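The miR-7 family of rat islets was measured as 2 mature miRNAs, miR-7a and miR-7b, of 340 miRNA names present on both array designs used. The members were taken by name, as every entry called rno-miR-7a or rno-miR-7b, with the star strands (the opposite arms of the precursors) set aside. Both were detected on 11 of 11 arrays. Neither differed detectably between daughters of fat-fed and of chow-fed fathers, and the intervals of both differences lay within -0.20 to 0.30 on the log2 scale. That range holds for the scaling used here, and with the 75th percentile over all names the differences were -0.17 ± 0.18 (SE) for miR-7a and -0.16 ± 0.17 for miR-7b.

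A miRNA is a short RNA that guides a silencing complex to mRNAs carrying a match to its seed, the bases near its 5′ end, and lowers their output. The miR-7 family is conserved across animals and is enriched in neuroendocrine cells, the hormone-secreting cells of the pancreatic islet among them. In mouse beta cells miR-7a has been described as a brake on insulin secretion, acting on genes of vesicle fusion, and miR-7 as a brake on beta cell division, acting on the mTOR pathway.

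The study used islets of female Sprague Dawley rats and asked how a father's diet bears on his daughters. HFD fathers ate pellets with 43% of fat and Control fathers ate chow with 9% of fat. All fathers were mated at 15 weeks with chow-fed females. The daughters of both groups were weaned onto chow at 3 weeks, had glucose tests at 6 and 12 weeks and an insulin test at 11 weeks, and gave islets at 13 weeks. The design text describes the HFD daughters as glucose intolerant from 6 weeks, with a weaker early insulin response and unchanged body weight. There were 6 Control and 5 HFD samples, named here by group and sample number. Which daughters shared a father or litter, and whether a sample was 1 animal, is not given in the sources used here. The p-values set differences against the spread between these samples and treat the samples as independent, which a shared father or litter would break.

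The mature sequences are shown because the 2 members share their seed and differ by 1 base, which bears on how well array probes can separate them. They are RefSeq sequences of the rat build GRCr8, written 5′ to 3′ with the seed (bases 2 to 8) in capitals.
rno-miR-7a-5p: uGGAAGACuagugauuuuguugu
rno-miR-7b: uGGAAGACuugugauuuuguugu

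The members were identical at 22 of 23 positions. The 1 difference was A10U, counted from 1 at the 5′ end and read from miR-7a to miR-7b, outside the seed. The seed GGAAGAC occurred in 3 of 724 mature entries of the RefSeq table, which carry 2 names, and these were the family itself. The array values were matched to RefSeq by miRNA name.

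miR-7a is encoded by 2 genes in that build, and both give the same mature sequence, so no array value can be assigned to 1 locus. The first copy, listed as Mir7-1, has its mature arm at chr17:6278710-6278732 on the plus strand, within the span of Hnrnpk, which encodes an RNA-binding protein. The second copy is listed under the symbol Mir8 with the synonym Mir7a-2. Its mature arm lies at chr1:142215818-142215840 on the plus strand, within the span of the long non-coding RNA gene LOC120099863. miR-7b has 1 locus, listed as Mir9 with the synonym Mir7b, at chr9:1167464-1167486 on the plus strand, within the span of the pseudogene Rpl35l3.

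The samples were read on 2 array designs, the first with 4 Control and 4 HFD samples and the second with 2 Control and 1 HFD sample. Design, slide and scan coincided and cannot be told apart. Between 105 and 184 of the shared names were detected per array. HFD 653 stood apart, with the fewest detected and a negative-control spread of 38.2, where the rest of its slide had 6.38 to 7.53. The number of arrays limits the precision. Of the endocrine markers, miR-375, the most studied islet miRNA, was detected on 11 of 11 arrays like both members. Of leukocyte markers, miR-150 and miR-223 were detected on 7 arrays each, miR-142-3p on 4 and miR-142-5p on 0. Of red blood cell markers, miR-451 was detected on 3 arrays and miR-144 on 0, and miR-122 of liver was detected on 0. miR-126 of endothelium was detected on all 11. Fibroblast and smooth muscle markers were detected on 11 arrays (miR-143), 10 (miR-199a-3p), 5 (miR-214) and 1 each (miR-145 and miR-199a-5p). Of markers of the enzyme-secreting acinar cells, miR-216a was detected on all 11 and miR-217 on 4. In such mixed tissue, fewer cells of a type and less RNA per cell cannot be told apart.

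miR-7a, the member best studied in beta cells, gave a strong signal on every array. Values are log2 of the array signal, summed over the probes of a miRNA and scaled between arrays. On the first design miR-7a read 12.59, 12.94, 12.93 and 13.12 on Control 602, 613, 615 and 639. It read 12.75, 12.99, 13.04 and 12.89 on HFD 603, 607, 644 and 653. The HFD values lay wholly inside the Control range, and Control 602 was the lowest and Control 639 the highest of the 8 arrays. The means were 12.90 ± 0.22 (SD, n = 4) for Control and 12.92 ± 0.13 (SD, n = 4) for HFD. As scaled signal, Control ran from 6186 to 8923 and HFD from 6866 to 8399. From lowest to highest the 8 samples spanned 1.44-fold. On the second design miR-7a read 13.16 and 13.30 on Control 635 and 652 and 13.38 on HFD 640, so that the single HFD array lay above both Control arrays.

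miR-7b was measured with less spread still. On the first design it read 8.22, 8.37, 8.56 and 8.56 on Control 602, 613, 615 and 639. It read 8.42, 8.59, 8.37 and 8.43 on HFD 603, 607, 644 and 653. The groups overlapped almost completely, with Control 602 again the lowest array and HFD 607 the highest. The means were 8.43 ± 0.16 (SD, n = 4) for Control and 8.45 ± 0.095 (SD, n = 4) for HFD. The 8 samples spanned 1.29-fold. On the second design miR-7b read 11.71 and 11.73 on Control 635 and 652 and 11.91 on HFD 640, again with the HFD array above both. An HFD array above both Control arrays was the common case on that design, found for 95 of 152 tested miRNAs (62.5%).

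**Figure D1:**
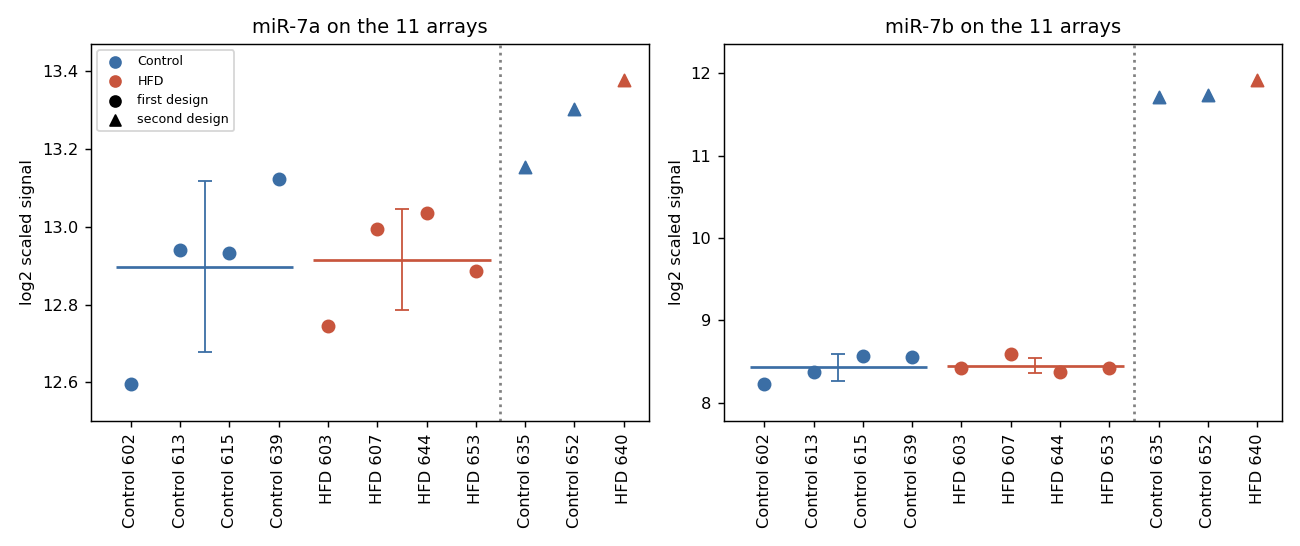
Log2 scaled signal of miR-7a (left) and miR-7b (right) on each of the 11 arrays, Control in blue and HFD in red. Circles are the first design, with group means and SD (n = 4), and triangles the second. The first-design means are 12.90 and 12.92 for miR-7a and 8.43 and 8.45 for miR-7b, and between designs the Control mean of miR-7b steps up by 3.29 and that of miR-7a by 0.33.

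The father's diet was compared in a limma model of all 152 tested miRNAs with array design as a block. miR-7a differed by 0.050 ± 0.11 (SE, HFD minus Control, log2), a 1.04-fold ratio with a 95% interval of 0.870 to 1.23 (limma adjusted p = 0.987). The sign is not settled, since 75th percentile scaling over all names gave -0.17 and median scaling gave -0.10. Exact permutation of the labels within design, over 210 splits, gave a 2-sided p of 0.633, where the smallest possible was 0.0048. miR-7b differed by 0.064 ± 0.096 (SE), a 1.05-fold ratio with an interval of 0.902 to 1.21 (limma adjusted p = 0.987), and by -0.16 and -0.089 under the same scalings. Its exact permutation p was 0.400, 2-sided.

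Both differences were near those of the other miRNAs. The test called 0 of 152 (0%) at an adjusted p of 0.05 and 3 (1.97%) at an unadjusted p of 0.05, with a smallest adjusted p of 0.987. A difference above 0 was found for 108 of 152 (71.1%), with a median of 0.066; that share was 23.7% with the 75th percentile over all names and 88.2% without scaling. The median moved to -0.15 with the 75th percentile over all names and to 0.16 without scaling. Relative to the median of all tested miRNAs, miR-7a lay at -0.016 and miR-7b at -0.0022. Over the settings that kept the design block, miR-7a lay between -0.062 and 0.19 of that median and miR-7b between -0.032 and 0.092. On the first design, the groups of 2 of 152 miRNAs (1.32%) did not overlap, and neither miRNA was a member.

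The members, like miR-200b and miR-200c, had smaller SEs than most tested miRNAs, so their intervals were comparatively narrow. The SE of miR-7b ranked 12 and that of miR-7a 33 from the smallest of 152, against a median SE of 0.18. Without HFD 653 the differences were 0.061 and 0.075, and on the first design alone 0.018 and 0.021. The second design gave 0.15 and 0.19, from 1 HFD array. A limma interaction of diet with design was 0.13 ± 0.27 (SE, limma adjusted p = 0.996) for miR-7a. For miR-7b it was 0.17 ± 0.23 (SE, limma adjusted p = 0.996), so neither member was shown to differ between designs in its response.

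**Figure D2:**
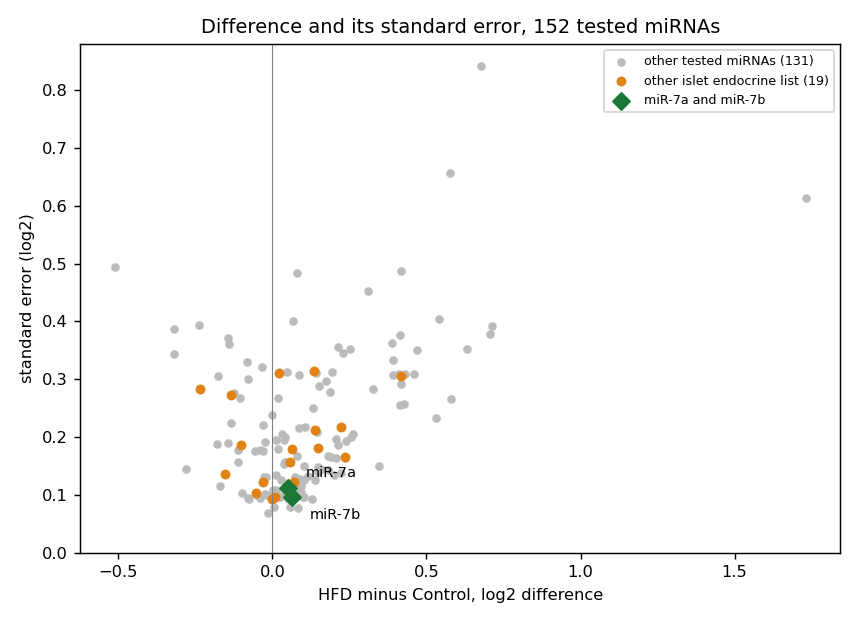
Each point is 1 of the 152 tested miRNAs, with its HFD minus Control log2 difference on the horizontal axis and the standard error of that difference on the vertical axis. miR-7a (0.050 ± 0.11) and miR-7b (0.064 ± 0.096), in green, lie low and near 0, and under 75th percentile scaling over all names both read below 0. Orange points are the other tested members of the islet endocrine list.

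No difference between the members in their response was detected. On each array the log2 value of miR-7b was taken from that of miR-7a, which cancels the scaling of that array. The resulting number has no meaning as an abundance ratio, because different probes bind with different strength, and only its change between arrays was used. On the first design it was 4.47 ± 0.11 (SD, n = 4) in Control and 4.47 ± 0.14 (SD, n = 4) in HFD. The HFD minus Control difference was -0.014 ± 0.072 (SE, 95% interval -0.18 to 0.15, 2-sided exact permutation p = 0.843). Its sign turned when any of Control 613, Control 639, HFD 603 or Control 652 was left out, at 0.0082, 0.0090, 0.018 and 0.00095.

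miR-375, which also restrains insulin secretion, served as the reference islet miRNA. It read 11.93, 11.88, 12.12 and 12.41 on Control 602, 613, 615 and 639, and 11.86, 12.26, 12.06 and 12.03 on HFD 603, 607, 644 and 653. The second design gave 12.70 and 12.48 for Control and 12.58 for HFD. The groups overlapped on both designs, and the difference was -0.031 ± 0.12 (SE, limma adjusted p = 0.987), or 0.042 without scaling. miR-7a minus miR-375, a comparison added after the data were seen, differed by 0.081 ± 0.095 (SE, 95% interval -0.14 to 0.30, 2-sided exact permutation p = 0.414).

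The wider list of 26 islet endocrine miRNAs, which holds both members, is given for comparison. All 26 names were on both designs, 23 were detected on at least 1 array and 21 were tested. Of the 21, 15 had a difference above 0 and 6 below, where 71.1% of all 152 were above 0 (23.7% with the 75th percentile over all names). Of the 21, 0 passed the test, and 0 had an unadjusted limma p under 0.05. The median was 0.055, against 0.066 over all 152, and it turned to -0.17 with 75th percentile scaling over all names. The 4 of smallest p were miR-487b at 0.23 ± 0.17 (SE), miR-212, made with miR-132 from 1 activity-responsive precursor, at 0.42 ± 0.30, miR-183 at -0.15 ± 0.14 and miR-204 at 0.22 ± 0.22. The limma adjusted p of each was 0.987. miR-184, another islet miRNA, and the neuronal miR-124 and miR-9 were detected on 0 arrays, and miR-211 and miR-376b-3p on 2 each. Among the other neuronal markers, miR-128 was detected on 9 arrays, miR-137 on 10 and miR-138 on 0.

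The probes behind the 2 values behaved differently on the 2 designs, although both designs list the same probe names. miR-7a is read by 2 probes of 10 spots each. On the first design A_26_P00001135 ran from 5747 to 8216 in scaled signal and made up 92.4% of the miR-7a sum (median), and on the second it ran from 5718 to 6654 and made up 62.7%. The other probe, A_26_P00001134, ran from 439 to 713 on the first design and from 3403 to 3981 on the second, which took its share from 7.62% to 37.3%. Every spot of both probes was well above background on every array. These shares describe the summed signal, not forms of the miRNA.

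miR-7b is read by 4 probes of 5 spots each, of which 2 carried its value. A_26_P00001176 ran from 188 to 234 on the first design and from 1848 to 2139 on the second. A_26_P00001175 ran from 110 to 153, with 39 of 40 spots well above background, and on the second design from 1276 to 1506. The remaining probes, A_26_P00001174 and A_26_P00001173, were not well above background in any of 40 spots each on the first design. That level was reached on the second design by A_26_P00001174 in 15 of 15 spots, at 160 to 182. A_26_P00001173 reached it in 9 of 15, on Control 652 (17.2) and HFD 640 (26.0). On Control 635 A_26_P00001173 read 28.8, with 0 of 5 spots at that level.

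**Figure D3:**
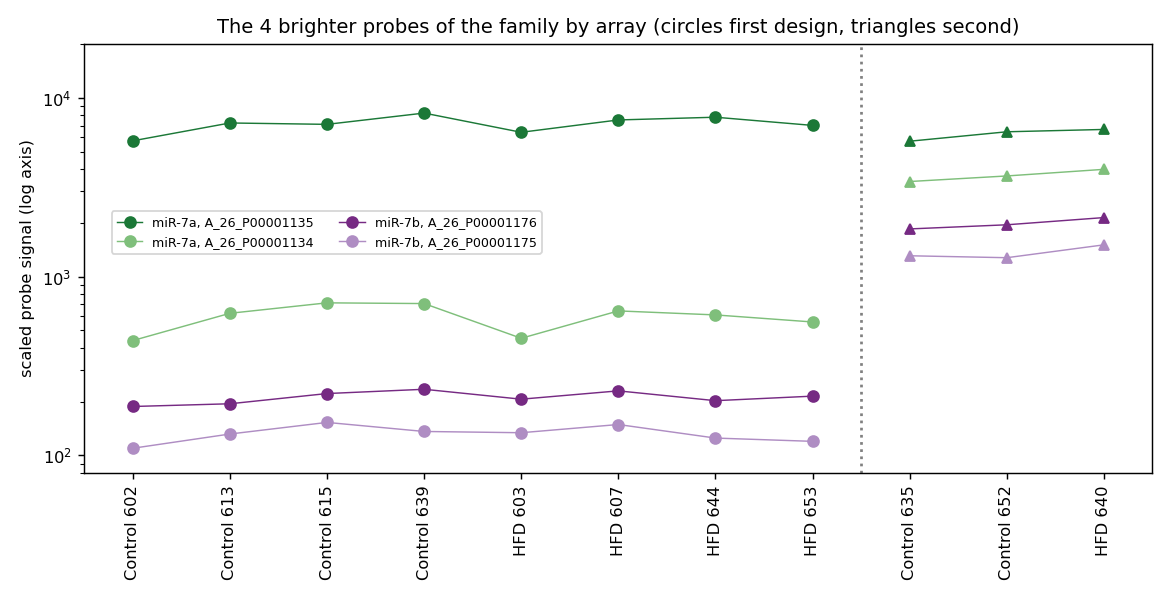
Scaled signal (log axis) of the 2 probes of miR-7a (green) and the 2 probes of miR-7b that carried its value (purple), on each array. Circles are the first design and triangles the second. A_26_P00001135 keeps its level across the dotted line while the other 3 probes step up, for example A_26_P00001176 from at most 234 to at least 1848.

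The step between designs was compared with that of all tested miRNAs, over Control arrays alone (4 and 2 of them), a comparison chosen after the values were seen. miR-7b was higher on the second design by 3.29 on the log2 scale, or 9.79-fold, and 0 of 152 tested miRNAs had a higher step. Next came miR-30b-5p at 3.01 and miR-136* at 2.88. miR-7a stepped by 0.33, with 66 of 152 (43.4%) higher, miR-375 by 0.50, and the median step was 0.23. With normexp background correction miR-7b stepped by 2.55 and 0 were higher.

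At the level of probes, with 190 compared, A_26_P00001175 stepped by 3.29 and A_26_P00001176 by 3.18, with 2 and 3 probes above them. A_26_P00001134 of miR-7a stepped by 2.53, with 7 higher, and A_26_P00001135 by -0.21. The 5th to 95th percentiles of all steps were -1.34 to 2.32. The designs held different rats, slides and scans, so the source of the steps cannot be told apart. The level of miR-7b is therefore known only within a design, and how far a probe for either member also binds the other, which differs by 1 base, was not tested.

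Differences by the father's diet were small at every probe that carried a value. On the first design A_26_P00001135 differed by 0.030 and A_26_P00001134 by -0.12, so the signs of the miR-7a probes were opposite, with SDs of 0.21 and 0.33 among the Control arrays. A_26_P00001176 differed by 0.029 and A_26_P00001175 by -0.0024. On the second design all 4 probes were higher on the HFD array, by 0.13 to 0.22. Spots repeated on an array varied by 12.2% to 17.9% (median CV per probe) on the first design, which left a standard error of 3.96% to 8.0% for a probe's mean. The CV between arrays was 10.9% and 17.6% for the miR-7a probes, beside spot standard errors of 3.96% and 4.10%. For the miR-7b probes it was 10.8% and 7.86%, beside spot standard errors of 6.58% and 8.0%. Spot errors leave out the error of labelling and of the array itself.

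Over the 8 arrays of the first design, both groups together, the 2 members varied together only in part. Pearson's r was 0.70 (2-sided exact permutation p = 0.0525, 0.070 adjusted over 4 relations) and Spearman's rho 0.36 (exact permutation p = 0.389). Without Control 602 and HFD 603, the arrays farthest from the median of miR-7a, r was 0.27 (exact permutation p = 0.596). Without Control 602 alone it was 0.36 and without HFD 603 alone 0.73, so the relation rested largely on Control 602. Centred by slide row, r was 0.66. It also depended on the scaling, at 0.92 with the 75th percentile over all names, -0.14 under quantile normalisation and -0.29 with normexp.

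The other 3 relations were added after values were seen. miR-7a and miR-375 had r = 0.72 (exact permutation p = 0.0442, adjusted p = 0.070) and rho = 0.71 (p = 0.0576), and r = 0.73 without the same 2 arrays (p = 0.10). Centred by slide row, their r was 0.62. miR-7a and the acinar miR-216a ran in opposite directions, with r = -0.78 (exact permutation p = 0.0218, adjusted p = 0.070) and rho = -0.71 (p = 0.0576). Without Control 602 and HFD 603 that r was -0.75 (exact permutation p = 0.0764), and centred by slide row it was -0.67. miR-7b and miR-216a had r = -0.57 (exact permutation p = 0.140) and rho = -0.45, or r = -0.70 without Control 602 and HFD 607 and -0.53 centred by row. None of the 4 passed after adjustment in the setting used here. All 3 of these relations moved with the scaling. For miR-7a with miR-375, r was 0.92 with the 75th percentile over all names (exact permutation p = 0.0053, unadjusted) and 0.88 with median scaling (p = 0.0053). Without scaling it was 0.94 (exact permutation p = 0.0014), but there both miRNAs carry the brightness of each array. The 75th percentile of the first-design arrays ran from 652 to 1052. Their r was 0.20 under quantile normalisation and 0.30 with the RMA-like summary. For miR-7a with miR-216a, r was -0.53, -0.51 and -0.45 under the first 3 of these settings and -0.45 and -0.71 under the others. It was -0.87 with normexp (exact permutation p = 0.0058, unadjusted). For miR-7b with miR-216a, r was -0.37, -0.25 and -0.40 under the same 3, -0.080 and -0.31 under the others, and 0.22 with normexp.

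The scaled signal of miR-216a varied far more than that of the family. It was 617.7, 426.9, 88.7 and 21.0 on Control 602, 613, 615 and 639, and 665.9, 302.1, 106.0 and 255.6 on HFD 603, 607, 644 and 653. Control 602 and HFD 603, which read lowest for miR-7a, were thus highest for miR-216a, and Control 639 was the reverse. miR-216a also separated by position on the slide. Slide row 1 (Control 602 and 613, HFD 603 and 607) read 302.1 to 665.9. Slide row 2 (Control 615 and 639, HFD 644 and 653) read 21.0 to 255.6. The list of 4 acinar markers had 2 names on both designs, miR-216a and miR-217. Its summed signal on the first design ran from 21.0 to 622.6 in Control and from 106.0 to 665.9 in HFD, overlapping. There the sum was miR-216a alone on every array but Control 602 (622.6 against 617.7), so it adds no second marker. On the second design it was 368.7 and 459.1 in Control and 438.0 in HFD. The part of acinar RNA or of slide row in the spread of miR-7a was not tested.

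**Figure D4:**
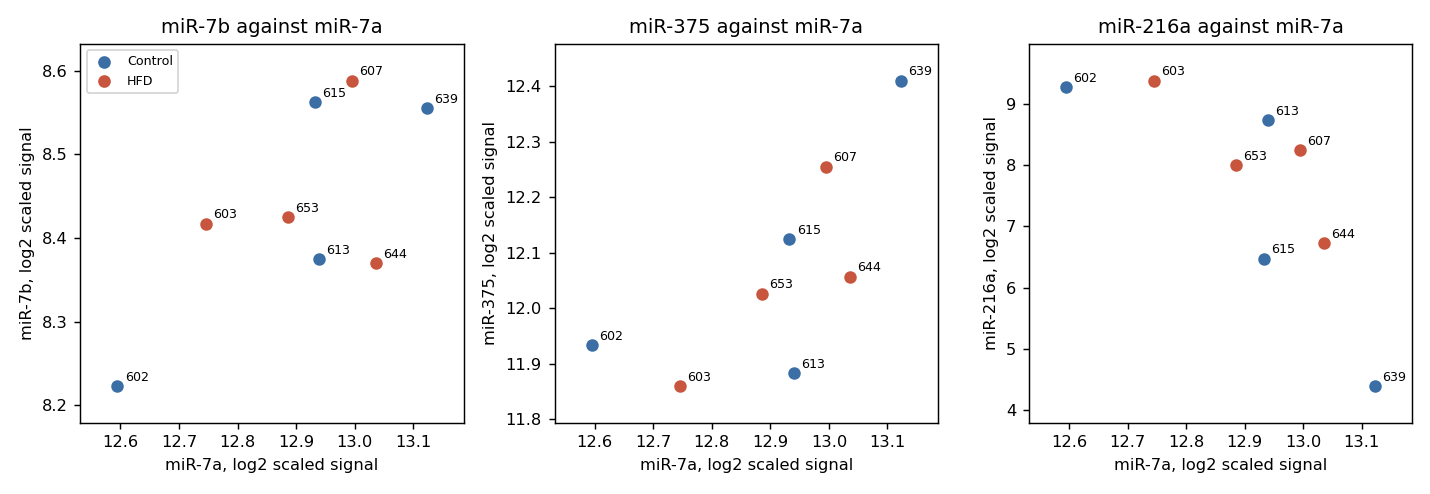
Log2 scaled signals on the 8 first-design arrays, with miR-7a on the horizontal axis and miR-7b (left), miR-375 (middle) and miR-216a (right) on the vertical axes; Control in blue, HFD in red, labels are sample numbers. r was 0.70, 0.72 and -0.78, and Control 602 lies at the low end of miR-7a in each panel.

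Other non-endocrine lists overlapped between the groups of the first design. The leukocyte list (5 markers, 4 shared) summed to 33.1 to 40.4 in Control and 33.6 to 356.3 in HFD, with HFD 603 the highest. Of its members 2 were tested, with a median difference of 0.94, and 1 had an unadjusted limma p under 0.05. That was miR-150, a lymphocyte miRNA, at 1.73 ± 0.61 (SE, limma adjusted p = 0.987), ranked 1 of 152 by p. Its Control mean on the first design was 3.50, near the log2 floor of 3.36, and it was detected on 7 of 11 arrays. On HFD 653 the leukocyte sum was 124.9 with 0 of the 4 shared markers detected. The endothelial list ran from 470.1 to 616.0 in Control and 437.9 to 793.5 in HFD. Fibroblast and smooth muscle markers ran from 263.5 to 460.3 and 271.6 to 594.6, and neuronal markers from 61.0 to 82.4 and 47.0 to 92.8. Red blood cell markers were at most 5.71 and 8.14, and the liver marker was at 0 in both. Without HFD 603, the array highest for the acinar and leukocyte lists, miR-7a differed by 0.095 and miR-7b by 0.077. Leaving out HFD 603 cannot separate these lists from other traits of that array, and their part in the members' values was not tested.

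The miRNAs with the pattern most like each member were taken by Pearson's r over the 8 first-design arrays, among 150 others, as a description with no test. Most like miR-7a were miR-128 (r = 0.95), miR-136 (0.94), miR-384-5p (0.93), miR-325-3p (0.93) and miR-300-3p (0.91), against a median r of 0.26. Without Control 602 and HFD 603 these became 0.75, 0.59, 0.70, 0.68 and 0.50. miR-128 is best known from neurons, and miR-136 and miR-300 come from the imprinted Dlk1-Meg3 cluster. Most like miR-7b were miR-29c (r = 0.96), miR-103 (0.86), miR-22 (0.86), miR-27b (0.82) and miR-455 (0.82), against a median of 0.23. Without the 2 arrays farthest from the median of miR-7b, miR-29c kept 0.95 and the others ran from 0.59 to 0.73. The points share array and scaling. No miRNA was on both lists of 5.

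Scalings that use 1 factor per array moved both members alike, while quantile normalisation moved miR-7a to 0.094 and miR-7b to -0.0031. Over all settings tried the limma adjusted p of either was at least 0.801.

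**Figure D5:**
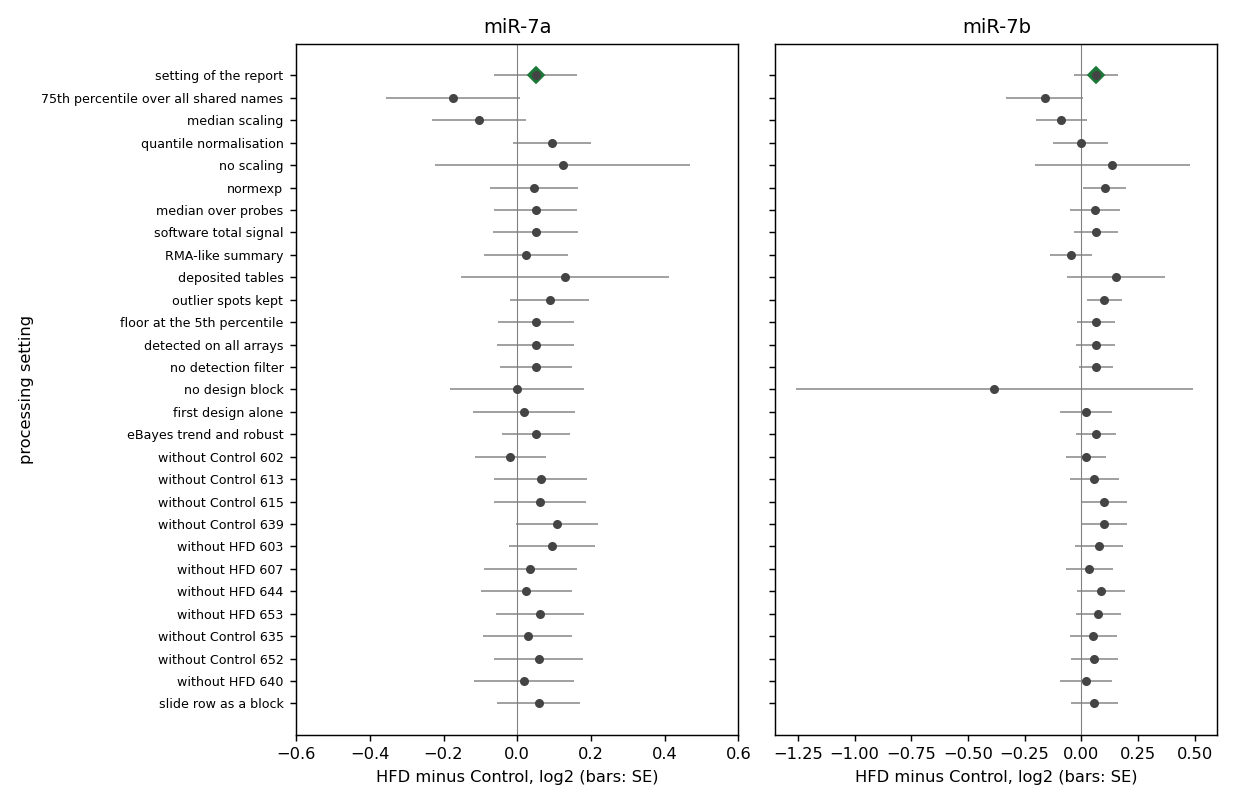
HFD minus Control log2 difference with its standard error for miR-7a (left) and miR-7b (right) under each processing setting; the green diamond is the setting of the report. Both lie below 0 with 75th percentile scaling over all names (-0.17 and -0.16) and median scaling (-0.10 and -0.089), and leaving out the design block moves miR-7b to -0.38 with a wide bar.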

How the data were processed

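Per the labels' protocols, Cy3-labelled miRNA was made from 100 ng of islet RNA a sample and read on Agilent arrays of 1 colour. The deposited spot intensity was background-subtracted by Feature Extraction 10.5.1.1 (first design) or 10.7.3.1 (second) and, per the file headers, was left without scaling between arrays. The authors' deposited log2 tables equal log2 of the software's total signal per miRNA, plus 50 on the first design. The submitters' processing notes also name RMA and Partek, role not given.

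Spots without outlier flags were averaged per probe and probes summed per miRNA. Arrays were scaled by the 75th percentile over 85 miRNAs detected on all 11 arrays, floored at the 1st percentile of detected values (10.3), and put on log2. miRNAs detected on at least 5 arrays were fitted with limma 3.58.1 in R 4.3.3, 2-sided, with array design as a block and Benjamini-Hochberg adjustment. The fit was run on simulated data with known differences, all larger than those of the members. That run gives no measure of how well smaller differences would be found. Exact permutation used all 210 label splits within design, and correlations all 40320 orders.

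Members and lists were chosen with earlier results of these data known. Named miRNAs are the members, miR-375, the 5 most correlated with each member, the 4 endocrine-list miRNAs of smallest p, and the arrays at the extremes. Markers come from the cell type lists, and those and the endocrine-list miRNAs named for their detection were picked after it was seen, as was miR-150. miR-216a, miR-30b-5p and miR-136* were named after their values were seen. No array pair held identical values. Alternatives covered scaling, background, probe summary, floor, filter, block and each array left out. The files hold no mean signal per spot, so normexp was run on the median signal, with an offset of 50.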

Additional observations from a re-analysis of the deposited data

Results flagged for a closer look

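Among the 4 Control arrays of the first design, Control 602 read far below the other 3 for 5 of the miRNAs most correlated with a member. The gap to the nearest array was 0.93 of the range for miR-325-3p (3.79, against 5.39 to 5.51) and 0.898 for miR-384-5p (8.29, against 9.00 to 9.08). It was 0.893 for miR-136 (6.50, against 6.91 to 6.95), 0.841 for miR-22 (9.83, against 10.44 to 10.56) and 0.833 for miR-27b (10.19, against 10.65 to 10.74). These groups were among 38 checked, and the 5 share 1 array. Chance flags about 1 in 20 independent groups, but these miRNAs were chosen for following a member over the same arrays, so that share is no measure here. Control 602 was also the lowest first-design array for both members, though not by a gap of that kind, and it was among the highest for miR-216a. Without it miR-7a differed by -0.019 and miR-7b by 0.019.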

How the results depend on the processing

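No paired analysis was possible because the groups share no sample numbers. Values are log2 HFD minus Control unless said otherwise, and the cause of each move was not tested. With the 75th percentile over all names, miR-7a was -0.17, miR-7b -0.16 and the endocrine-list median -0.17, and r between members 0.92. With median scaling these were -0.10, -0.089, -0.098 and 0.78. Quantile normalisation gave miR-7b -0.0031, miR-7a minus miR-7b 0.097 and r -0.14, and the RMA-like summary -0.046, 0.069 and a list median of -0.11. Without scaling 1 miRNA was called, miR-375 was 0.042 and r 0.97. The deposited tables gave miR-375 0.051 and r 0.97, and normexp r -0.29 and 0.22 for miR-7b with miR-216a. Without the design block miR-7a was -0.00053, miR-7b -0.38 and their difference 0.38. The slide row as a block gave a difference of 0.00095, and the first-design miR-7a probe A_26_P00001134 alone -0.12. The row and single-probe settings were chosen after the data were seen. The share of the 152 above 0 fell from 71.1% to 23.7% with the first of these scalings, 32.2% with the median, 27.6% with quantile normalisation and 25% with the RMA-like summary, and rose to 88.2% without scaling and 86.8% in the deposited tables.

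Leaving out 1 array at a time gave miR-7a -0.019 to 0.11 (below 0 only without Control 602), miR-7b 0.019 to 0.10, miR-7a minus miR-7b -0.063 to 0.018, the list median 0.00012 to 0.084 and 0 to 0 calls. miR-375 gave -0.079 to 0.048, turning without Control 639 (0.048) or HFD 603 (0.016). r between members ran from 0.36 (without Control 602) to 0.83 (without HFD 644, exact permutation p = 0.022). miR-7a minus miR-375, which 1 factor per array, the floor and the filter cannot change, ran from 0.039 to 0.14 with 1 array left out. The second design's single HFD array and the step in probe signal limit what can be said of miR-7b there.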

Other observations

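The opposite arms of the miR-7a precursors had 1 entry on the first design, detected on only 3 of 8 arrays. Which precursor that entry reads was not checked. On the second design 1 arm was detected on 2 of 3 arrays and the other on 3 of 3. RefSeq lists the arms under newer names, matched here by name, and they are shown with bases 2 to 8 in capitals.
rno-miR-7a-1-3p: aCAACAAAucacagucugccau
rno-miR-7a-2-3p: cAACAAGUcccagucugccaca

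The first design has 1 entry, miR-7a*, whose software total signal ran from -0.30 to 7.74 and which was detected on 3 of 8 arrays. The total of 7.74 came from HFD 653, where miR-7a* was not detected. The detected totals were 1.27 on Control 613, 1.24 on HFD 607 and 2.93 on HFD 644. The second design has an entry for each precursor. miR-7a-1* read 0.10 on Control 635, where it was not detected, 24.1 on Control 652 and 30.5 on HFD 640. miR-7a-2*, the arm of the Mir7a-2 copy, was detected on 3 of 3 arrays, at 26.2, 79.1 and 85.0. These totals are not scaled between arrays, and Control 635 was the dimmest of the 3 arrays for the summed miR-7a signal too, at 9126 against 23471 and 22406.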
